A study of Rattus norvegicus with 16 samples.

Results

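The guide strands rno-miR-23a, rno-miR-27a, rno-miR-24, rno-miR-23b and rno-miR-27b, 5 of the 350 rat miRNAs on the array, were picked by name with earlier results of these data known. They were selected on the measured differences between treated and control rats, a small shared rise in kidney beside a fall of some of them in plasma. Those differences are therefore a description and carry no test. The difference between kidney and plasma within a treatment was not itself used in the choice and was tested. It rests on the same pool values, so its size in CI-AKI pools against that in control pools is not free of the selection. All 5 were detected on all 16 arrays and so passed the filter on low signal in every comparison.

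A mature miRNA is cut from a hairpin precursor, loaded into an Argonaute protein and pairs through its seed, the bases near its 5′ end, with target mRNAs, which are then repressed. One strand of the hairpin, the guide, usually accumulates, while the other, the passenger (marked with an asterisk), is mostly degraded. The miR-23, miR-27 and miR-24 hairpins lie side by side and are transcribed together from paralogous clusters. The cluster with miR-23b, miR-27b and miR-24-1 lies within the Aopep gene in mammals, and the cluster with miR-23a, miR-27a and miR-24-2 is a short transcription unit of its own. In mouse, these miRNAs are known from studies of endothelial sprouting, muscle wasting, T cells and fat cell differentiation, and miR-23a is a common reference for judging haemolysis of plasma because haemolysis changes its level little.

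In rat, per RefSeq on GRCr8, the miR-23a cluster spans 389 bases on the minus strand of chromosome 19 (chr19:40859455-40859843) and the miR-23b cluster spans 814 bases on the minus strand of chromosome 17 (chr17:1818669-1819482). The mature sequences are shown because they decide which members share targets and which of them an array must tell apart by 1 base. Capitals mark the seed, bases 2 to 8 from the 5′ end.
miR-23a: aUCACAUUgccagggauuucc
miR-23b: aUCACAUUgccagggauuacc
miR-27a: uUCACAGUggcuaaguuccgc
miR-27b: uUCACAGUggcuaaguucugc
miR-24: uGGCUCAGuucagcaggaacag
miR-24-2*: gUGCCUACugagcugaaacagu
miR-24-1*: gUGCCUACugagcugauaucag
All 5 members matched a RefSeq entry. miR-23a lies at chr19:40859778-40859798, miR-27a at chr19:40859614-40859634, miR-23b at chr17:1819405-1819425 and miR-27b at chr17:1819163-1819183, all on the minus strand. Between miR-23a and miR-23b 1 base differs, U19A, and between miR-27a and miR-27b 1 base differs, C19U, both counted from the 5′ end. The seed UCACAUU occurs in no rat mature miRNA of the table other than the miR-23 pair, UCACAGU in none other than the miR-27 pair, and GGCUCAG only in miR-24. Both miR-24 hairpins give the same guide (chr17:1818672-1818693 and chr19:40859481-40859502), so 1 signal stands for both loci. The passengers miR-24-1* and miR-24-2* differ at 5 bases outside the seed, so they could report on the loci apart where both are detected. How far the probes separate 1-base variants was not tested.

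The animals were 24 male Sprague-Dawley rats, every one of them deprived of water for 3 days and injected with the diuretic furosemide (10 mg/kg), controls included. The contrast-induced acute kidney injury (CI-AKI) group of 12 rats then received Omnipaque, a nonionic low-osmolar iodinated contrast medium (350 mg iodine per ml, 10 ml/kg), into the tail vein, and the control group of 12 received the same volume of saline. Blood plasma and kidney were taken 8 h later, and RNA of 3 rats was pooled for each array, which gave 4 kidney CI-AKI, 4 kidney control, 4 plasma CI-AKI and 4 plasma control arrays. Normal hydrated rats, and rats given contrast medium without water deprivation, were not analysed here.

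Whole-array properties touch several results. The 8 kidney arrays detected 169 to 216 miRNAs. Plasma pools 1 to 3 of both groups detected 156 to 211, whereas plasma pool 4 detected 95 in the CI-AKI group and 84 in the control group, with a total miRNA signal of 3484 to 7068 against 24171 to 123239 on the other plasma arrays. These 2 arrays also failed the scanner software's range for the labelling control RNA. Kidney arrays lay on one slide and plasma arrays on the other, and CI-AKI and control arrays in different columns, so that tissue and slide, and treatment and column, cannot be told apart. Of 8 letter codes in the labels, each used once per tissue, 6 carry opposite treatments in kidney and plasma; what the letters mean is not stated, and the comparisons of treatment would not hold for a letter that marks 1 set of rats. The labelled tissues showed their markers: 4 of 5 epithelial miR-200 family members were called higher in kidney in CI-AKI pools (27.6% of all miRNAs tested) and 4 of 5 in control pools (33.1%), and the erythroid miR-451 was lower in kidney than in plasma in both (limma, adjusted p = 1.41e-06 in CI-AKI pools and 3.42e-07 in control pools).

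Kidney and plasma differed in the proportion of the near-identical members. Within each array, the signal of miR-23a was divided by that of miR-23b, which needs no scaling between arrays. The log2 ratio was -0.18, -0.01, -0.36 and -0.12 in the 4 kidney CI-AKI pools, against 2.91, 2.88, 2.91 and 2.93 in the 4 plasma CI-AKI pools. In control pools it was -0.26, -0.13, -0.17 and -0.23 in kidney, against 2.92, 3.11, 2.82 and 3.02 in plasma. No kidney pool came near a plasma pool, and the plasma ratio hardly moved although the miR-23a signal before scaling differed 26.7-fold between plasma arrays, pool 4 included. Probes of different miRNAs have no common scale, so the ratio itself is not a molar one, but its difference between tissues sets the same probes against each other. How far the probes of a pair also take up signal of the other member was not tested, here and for the miR-27 pair, so a steady ratio is no sign of reliability. The ratio was 8.44-fold lower in kidney than in plasma in CI-AKI pools (log2 kidney minus plasma -3.08, SE 0.073) and 8.96-fold lower in control pools (-3.16, SE 0.069).

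The miR-27 pair differed between tissues in the same direction and less strongly. The log2 ratio of miR-27a over miR-27b was -0.34, -0.12, -0.21 and -0.32 in kidney CI-AKI pools, against 1.73, 1.68, 1.84 and 1.38 in plasma CI-AKI pools. In control pools it was -0.38, -0.28, -0.37 and -0.35 in kidney, against 1.17, 1.68, 1.49 and 0.98 in plasma. All kidney pools again lay below all plasma pools, and the ratio was 3.75-fold lower in kidney in CI-AKI pools (log2 difference -1.91, SE 0.11) and 3.19-fold lower in control pools (-1.67, SE 0.16). For each of these 4 differences the two-sided exact permutation p was 0.0286, the smallest that 70 labellings of 4 against 4 pools allow, and 0.0286 after Benjamini-Hochberg adjustment over the 4 tests. Within a treatment, kidney and plasma were taken from the same 12 rats, so the pools are not independent samples, here and in the limma fits between tissues, and the labels do not settle which pools match; were they matched, a sign-flip test over 4 pairs could not give a p below 0.125. The ratios were chosen as a measure after the data were seen. With plasma pool 4 of both groups left out the differences were -3.07 and -3.15 for the miR-23 pair and -1.998 and -1.79 for the miR-27 pair, in CI-AKI and control pools in that order.

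**Figure D1:**
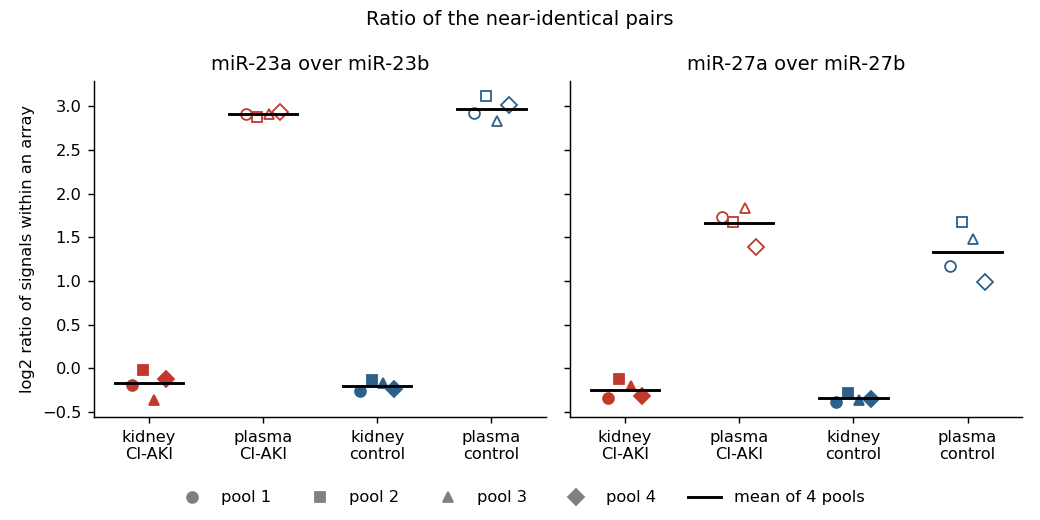
Log2 ratio of the signals of each near-identical pair within an array (vertical axis) in kidney and plasma pools of CI-AKI rats (red) and control rats (blue), with filled symbols for kidney, open symbols for plasma and a bar for the mean of 4 pools. Kidney ratios lie between -0.38 and -0.01, plasma ratios between 2.82 and 3.11 for the miR-23 pair and between 0.98 and 1.84 for the miR-27 pair.

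On a scale common to all 16 arrays (each array divided by the 75th percentile of the 65 miRNAs detected on every array), miR-23a was the member with the lowest kidney level relative to plasma. Its scaled signal was 1014, 1154, 991 and 982 in kidney CI-AKI pools, against 2938, 3572, 3309 and 3540 in plasma CI-AKI pools. In control pools it was 901, 1007, 1018 and 985 in kidney, against 4225, 4175, 3608 and 4406 in plasma. The groups did not overlap, and miR-23a was lower in kidney by 1.69 log2 units in CI-AKI pools (difference -1.69, SE 0.18, adjusted p = 1.98e-05, limma with Benjamini-Hochberg adjustment over 181 miRNAs) and by 2.07 in control pools (-2.07, SE 0.11, adjusted p = 8.15e-07 over 178 miRNAs).

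miR-23b, which shares its seed with miR-23a, went the other way. Its scaled signal was 1152, 1165, 1271 and 1067 in kidney CI-AKI pools, against 391.6, 486, 439 and 465 in plasma CI-AKI pools, and 1077, 1102, 1144 and 1157 in kidney control pools, against 560, 483, 509 and 545 in plasma control pools. Every kidney pool exceeded every plasma pool, by 1.39 log2 units on average in CI-AKI pools (SE 0.18, adjusted p = 7.94e-05) and 1.10 in control pools (SE 0.10, adjusted p = 1.89e-05, both limma).

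miR-24, the product of both clusters, lay between them, lower in kidney by less than miR-23a. It averaged 594 ± 38.7 in kidney and 1122 ± 96.0 in plasma of CI-AKI pools, and 522 ± 30.7 in kidney and 1281 ± 143 in plasma of control pools (SD, n = 4 each). The log2 differences were -0.92 (SE 0.18, limma adjusted p = 0.00113) and -1.29 (SE 0.12, limma adjusted p = 1.84e-05). Kidney and plasma pools did not overlap in either treatment.

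miR-27a averaged 347 ± 33.7 in kidney and 959 ± 365 in plasma of CI-AKI pools, and 291 ± 13.4 in kidney and 895 ± 397 in plasma of control pools (SD, n = 4 each). It was lower in kidney by log2 differences of -1.39 (SE 0.29, limma adjusted p = 0.00166) and -1.505 (SE 0.31, limma adjusted p = 0.0024). miR-27b averaged 411 ± 23.9 in kidney and 299 ± 99.7 in plasma of CI-AKI pools, and 369 ± 7.005 in kidney and 337 ± 83.1 in plasma of control pools. Its differences of 0.51 (SE 0.25, limma adjusted p = 0.092) and 0.17 (SE 0.19, limma adjusted p = 0.442) did not pass the threshold, and its plasma pools overlapped the kidney pools. With plasma pool 4 of both groups left out, miR-27b was higher in kidney by 0.54 in CI-AKI pools and 0.33 in control pools and passed (limma adjusted p = 0.0476 and 0.0239), and the other 4 members kept sign and call.

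Between tissues, 4 of the 5 members thus passed in each treatment, against 74% of all 181 miRNAs tested in CI-AKI pools and 77.5% of all 178 in control pools, a share near the background. Of all miRNAs, 27.6% were called higher and 46.4% lower in kidney in CI-AKI pools, and 33.1% higher and 44.4% lower in control pools. Kidney pools lay wholly above plasma pools for 28.7% and wholly below for 43.1% in CI-AKI pools, and for 33.7% and 44.9% in control pools. This split depends on the scaling (50 higher and 84 lower in CI-AKI pools, against 78 and 50 after quantile normalization; 59 and 79 in control pools, against 80 and 55), and the median of all tested miRNAs was -0.59 in CI-AKI and -0.40 in control pools. Relative to that median, the members stood at -1.10 and -1.67 for miR-23a, -0.80 and -1.11 for miR-27a, -0.33 and -0.89 for miR-24, 1.98 and 1.496 for miR-23b, and 1.10 and 0.57 for miR-27b, in CI-AKI and control pools in that order. After normexp, where the median was -1.99 in CI-AKI and -1.28 in control pools, the sign turned for miR-23a (1.17), miR-27a (0.66) and miR-24 (1.39) in CI-AKI pools and for miR-24 (0.20) in control pools, and miR-24 also turned (0.16) in CI-AKI pools among miRNAs detected on every array. Without any scaling, miR-24 and miR-27a were higher in kidney in both treatments and miR-23a in CI-AKI pools, so the sign of these 3 rests on the scaling, which the within-array ratios do not use. miR-23b was higher in kidney under all 22 alternatives in each treatment, by 1.02 to 3.57 in CI-AKI pools and 0.88 to 3.13 in control pools, with the highest value in each without scaling.

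**Figure D2:**
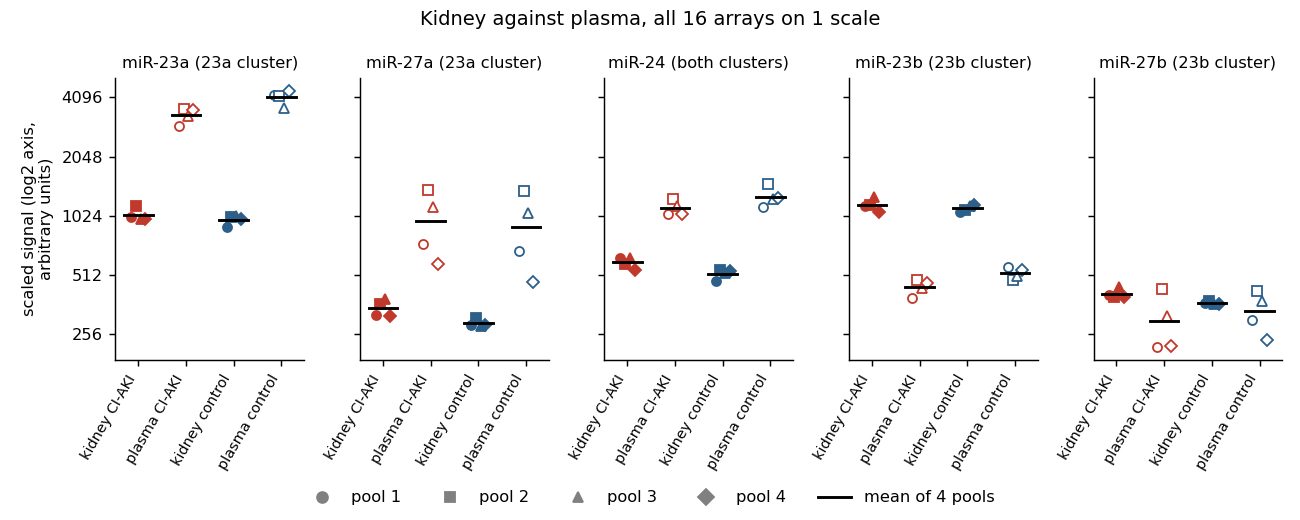
Scaled signal (vertical log2 axis, arbitrary units, all 16 arrays on 1 scale) of each member in kidney (filled) and plasma (open) pools of CI-AKI rats (red) and control rats (blue), with a bar for the mean of 4 pools. miR-23a, miR-27a and miR-24 lie lower in kidney, miR-23b lies higher in kidney, and the miR-27b groups overlap.

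Both probes of each member gave the same direction between tissues in both treatments. The miR-23b probes differed in size, with log2 differences of 1.69 and 1.22 in CI-AKI pools and 1.48 and 0.89 in control pools, whereas those of miR-24 gave -1.03 and -0.83 in CI-AKI pools and -1.32 and -1.27 in control pools.

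In kidney after contrast medium, all 5 members averaged slightly higher in CI-AKI pools, on the scale of the kidney arrays, which is set by 163 miRNAs detected on all 8. Of 176 miRNAs tested, 1.7% (3 miRNAs: miR-327, miR-466b and miR-494) were called higher by limma and 0% lower, and no member was among them; at an unadjusted p under 0.05 these shares were 6.25% and 0%. miR-327 and miR-466b entered the test only through the CI-AKI group, as they were detected on 0 and 1 of 4 control arrays. A mean above control was seen for 60.2% of all tested miRNAs, whose median was 0.03 on the log2 scale. Nothing is read from the members' count, since this contrast chose them.

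miR-27a was furthest above control in kidney on this scale, but not after quantile normalization (0.15, against 0.18 for miR-24) or in the authors' deposited table (0.14, against 0.24). Its scaled signal was 675, 751, 765 and 683 in CI-AKI pools, against 604, 646, 601 and 566 in control pools, with no overlap, a log2 difference of 0.25 (SE 0.071). miR-24 followed with 1323, 1200, 1238 and 1174 in CI-AKI pools, against 1013, 1132, 1117 and 1064 in control pools, also without overlap (0.19, SE 0.067). miR-27b had 857, 818, 883 and 851 in CI-AKI pools, against 786, 787, 775 and 719 in control pools, again apart (0.15, SE 0.060). CI-AKI pools lay wholly above control pools for 5.11% of all 176 tested miRNAs.

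The miR-23 pair was closer to control and overlapped it. miR-23a had 2142, 2386, 1962 and 2113 in CI-AKI pools, against 1915, 2092, 2158 and 1951 in control pools, so that 1 CI-AKI pool lay above all controls (0.08, SE 0.077). miR-23b had 2434, 2410, 2517 and 2295 in CI-AKI pools, against 2289, 2289, 2425 and 2292 in control pools (0.05, SE 0.058). Within the slide's first row miR-23a differed by 0.18 and within its second row by -0.01, while the other 4 members were above control in both rows. Less the median of all tested miRNAs, miR-24, miR-27a and miR-27b stayed above 0 in all 22 alternatives, and miR-23a and miR-23b in 21 of 22 each. These counts reuse the same arrays and describe values the members were selected on.

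**Figure D3:**
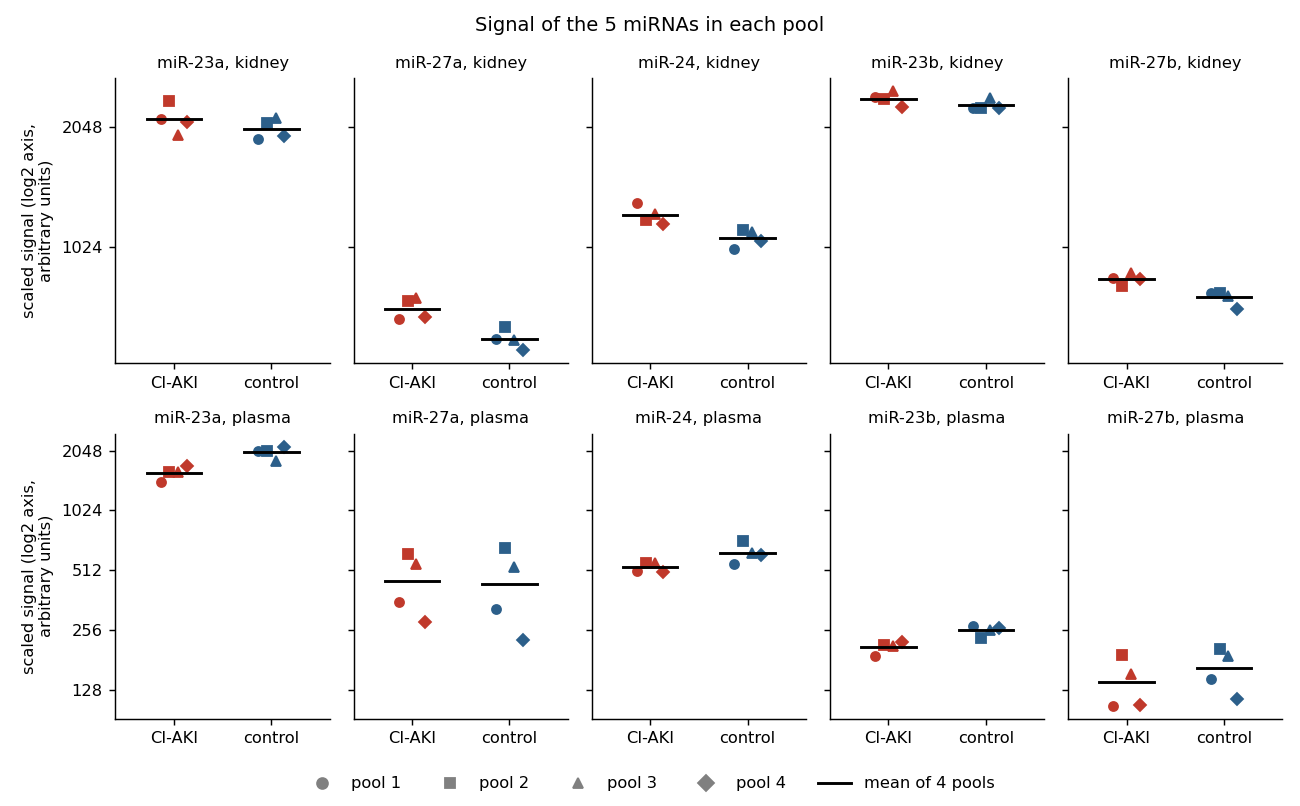
Scaled signal (vertical log2 axis, arbitrary units, kidney and plasma each on a scale of its own) of each member in the 4 CI-AKI pools (red) and 4 control pools (blue), kidney above and plasma below, with a bar for the mean. In kidney the groups are apart for miR-27a, miR-24 and miR-27b; in plasma they are apart for miR-23a and miR-23b.

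In plasma the members that stood apart were the other ones. Of 96 miRNAs tested between CI-AKI and control plasma, 0% passed limma's adjusted threshold, while at an unadjusted p under 0.05 there were 3 higher (3.12%) and 2 lower (2.08%), and 59.4% had a mean below control. On the plasma scale, set by 74 miRNAs detected on all 8 arrays, miR-23a had 1425, 1594, 1606 and 1707 in CI-AKI pools, against 2045, 2029, 1813 and 2135 in control pools. Every CI-AKI pool lay below every control pool (log2 difference -0.34, SE 0.21). This SE, like the others set in brackets beside a treatment difference, is limma's, which draws each miRNA's spread toward that of all miRNAs tested. The pooled SD of miR-23a's own log2 values within groups was 0.10, against a median of 0.51 over all tested. miR-23b had 190, 217, 213 and 224 in CI-AKI pools, against 271, 235, 256 and 264 in control pools, also without overlap (-0.28, SE 0.21). Among all 96 miRNAs, 3.12% lay wholly below control, and the median difference was -0.09.

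miR-23a and miR-23b thus differed by about the same amount in plasma, and their ratio differed by -0.06 between CI-AKI and control pools. miR-24 had 508, 557, 556 and 505 in CI-AKI pools, against 550, 718, 628 and 611 in control pools, with 2 CI-AKI pools below all controls (-0.23, SE 0.22). miR-27a had 357, 616, 551 and 282 in CI-AKI pools, against 330, 663, 533 and 228 in control pools, overlapping throughout (0.09, SE 0.40); its difference was below 0 in 7 of 23 alternatives, with a range of -0.17 to 0.33. miR-27b had 107, 193, 154 and 108 in CI-AKI pools, against 147, 207, 191 and 116 in control pools (-0.24, SE 0.30). Set against the control pool of the same number, miR-23a, miR-23b, miR-24 and miR-27b were each lower in 4 of 4 pairs and miR-27a in 1 of 4; over these pairs the SE of the mean ran from 0.056 (miR-24) to 0.086 (miR-27b). These counts are on the main plasma scale and, like the differences, describe values the members were selected on.

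The size in plasma rests on the scaling and on the weak pool 4 arrays. With pool 4 of both groups left out, the differences were -0.09 for miR-23a, -0.04 for miR-23b, 0.03 for miR-24, 0.27 for miR-27a and -0.03 for miR-27b, while the median of all tested miRNAs was 0.26. Over 23 alternatives that median ran between -0.35 and 0.38. Less the median, miR-23a lay between -1.23 and -0.18 and miR-23b between -0.40 and -0.11, below 0 in all 23, as were miR-24 and miR-27b, whereas miR-27a was above 0 in 20 of 23. These alternatives reuse the same arrays and the values the members were selected on. The median also moves with the miRNAs tested, 182 without pool 4 of both groups against 96 in the main fit. A constant sign less the median is therefore a description and no support for a fall. Whether treatment acted differently in kidney and plasma was not tested, since that contrast chose the members.

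**Figure D4:**
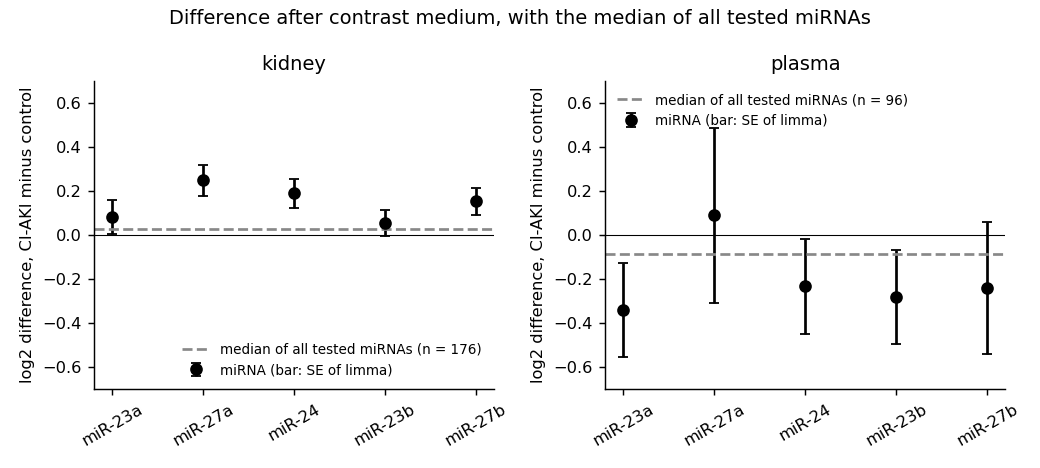
Log2 difference of scaled signal, CI-AKI minus control (vertical axis), of each member in kidney and in plasma, with the standard error of the limma fit as bars and the median of all tested miRNAs as a dashed line. In kidney the members lie between 0.05 and 0.25, and in plasma between -0.34 and 0.09 with wider errors.

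In plasma the miR-27 pair varied between pools far more than the miR-23 pair, and in the same pools of both groups. The pooled SD within groups was 0.62 log2 units for miR-27a and 0.40 for miR-27b, near the median of 0.51 over all 96 tested plasma miRNAs. For miR-23a, miR-23b and miR-24 it was 0.10, 0.097 and 0.13, so these were the members unlike most plasma miRNAs. After scaling, miR-27a ranged 2.90-fold and miR-27b 1.93-fold over the 8 plasma arrays, against 1.498-fold for miR-23a, 1.43-fold for miR-23b and 1.42-fold for miR-24. Pools 2 and 3 of both groups were high in miR-27a and pools 1 and 4 low. The 4 arrays with the lower total miRNA signal, 2 from each treatment, had miR-27a at 228 to 357, and the 4 with the higher total, also 2 from each, had 533 to 663. For miR-27b these ranges were 107 to 147 and 154 to 207, and for miR-23a they were 1425 to 2135 and 1594 to 2029, which overlap. Total signal moved with the miR-27 pair, and its part in their spread was not tested. Only the members were set against total signal, so this is not shown to be particular to the pair.

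**Figure D5:**
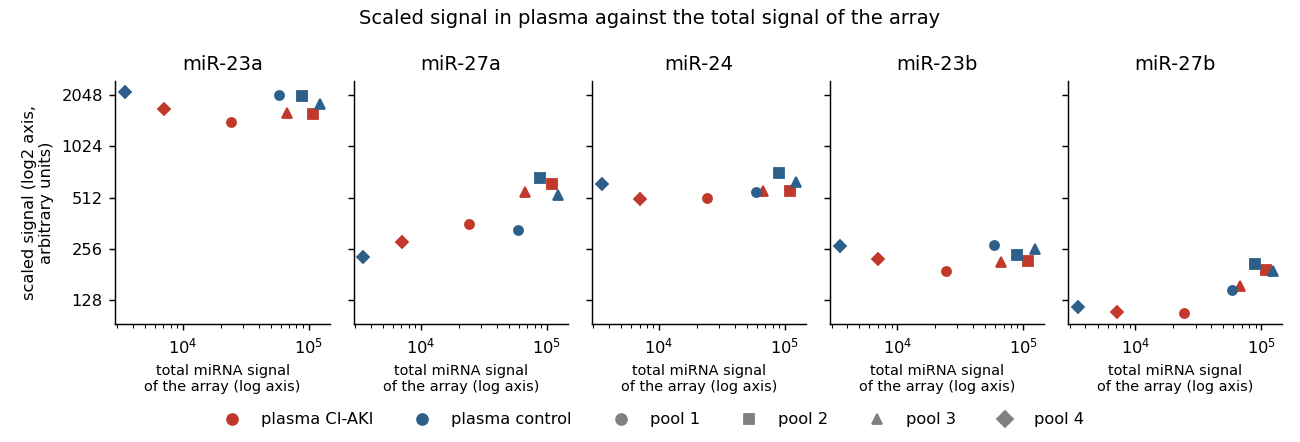
Scaled signal of each member (vertical log2 axis, arbitrary units) against the total miRNA signal of the array (horizontal log axis) for the 8 plasma arrays, CI-AKI in red and control in blue, symbols by pool. miR-27a and miR-27b are higher on the 4 arrays with the higher total, and miR-23a, miR-23b and miR-24 overlap between low and high totals.

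The co-variation of members after removing group means differed in the same way. Over the 8 plasma arrays, Pearson's r was 0.96 between miR-27a and miR-27b, 0.61 between miR-23a and miR-23b, and -0.37 between miR-23a and miR-27a, the last from 1 cluster. miR-24 had 0.75 with miR-27a and 0.70 with miR-27b. With miR-23b it had -0.48 and with miR-23a -0.03 (-0.40 and 0.22 without plasma pool 4 of both groups). Over the 8 kidney arrays no pair exceeded 0.50, the value of miR-23b and miR-24, and miR-27a with miR-27b had 0.45. Without plasma pool 4 of both groups (6 arrays) the plasma values were 0.93 for the miR-27 pair, 0.46 for the miR-23 pair, 0.28, with the sign turned, for miR-23a and miR-27a, and 0.93 and 0.75 for miR-24 with miR-27a and miR-27b. These arrays share slide and scaling, and how far probes separate the near-identical members was not tested, so the coefficients are descriptive.

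Across all miRNAs detected on every array of a tissue, the pattern over 8 plasma arrays most like that of miR-23a was that of miR-23b (r = 0.91), followed by miR-199a-3p (0.88) and miR-215 (0.85), and for miR-23b it was miR-23a, miR-199a-3p (0.88) and miR-26b (0.81). For miR-27a they were miR-29c (0.98), miR-30e (0.89) and miR-29a (0.88), for miR-27b miR-30c (0.93), miR-30b-5p (0.93) and miR-27a (0.87), and for miR-24 miR-29b (0.79), miR-214 (0.71) and miR-30b-5p (0.70). The 3 miRNAs of each member were picked on all 8 plasma arrays, and no new search over all miRNAs was made without pool 4. Without plasma pool 4 of both groups, the order among these 3 changed for 3 members. For miR-23a, miR-215 (0.94) came before miR-23b (0.88), and for miR-23b, miR-26b (0.91) came before miR-23a (0.88). For miR-27b, miR-30b-5p (0.97) came before miR-30c (0.92). The value of miR-27a with miR-29c was then 0.96. These coefficients keep the difference between CI-AKI and control pools, by which the members were selected. In kidney, miR-27a and miR-27b had 0.85, against the 0.45 given above with group means removed, with miR-31 at 0.93 and 0.84 and miR-326 (0.90) and miR-429 (0.84) beside them. miR-24 went with miR-7a* (0.94), miR-494 (0.90) and miR-322* (0.89), miR-23a with miR-9 (0.88), miR-10b (0.86) and miR-150 (0.84), and miR-23b with miR-542-5p (0.86), miR-345-5p (0.80) and miR-140 (0.80). Several of these differed between CI-AKI and control kidney by more than most miRNAs, with log2 differences of 0.78 for miR-494, 0.44 for miR-31, 0.28 for miR-7a* and 0.22 for miR-326.

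Of the miR-24 passengers only miR-24-2* was detected, so the miR-24 loci were not told apart. miR-24-2*, from the miR-23a cluster, was detected on all 8 kidney arrays at 23.2 ± 1.68 in CI-AKI pools and 19.5 ± 1.24 in control pools (SD, n = 4 each), a log2 difference of 0.25 (SE 0.076) that did not pass (limma adjusted p = 0.253) although the groups did not overlap; over the alternatives it ran from 0.07 (quantile normalization) to 0.28. It was detected on 3 of 4 plasma arrays in each treatment. On the 16-array scale it was lower in kidney, by -1.27 in CI-AKI pools (SE 0.41, limma adjusted p = 0.0192) and -1.29 in control pools (SE 0.21, limma adjusted p = 0.00058), but its sign turned under quantile normalization, when no scaling was used, and with the authors' deposited table. miR-24-1*, from the miR-23b cluster, was detected on none of the 16 arrays. miR-27a* was detected on 1 array and miR-23a* on 6, too few for a comparison.

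Sets that share background with these miRNAs were set beside them. Between CI-AKI and control pools, limma called 1.7% of all 176 miRNAs tested in kidney and 0% of all 96 in plasma. A count of 0 in a list is near these shares. The medians of all tested miRNAs were 0.03 in kidney and -0.09 in plasma. Of 7 endothelial and angiogenic miRNAs, 0 passed limma's threshold in kidney or plasma between CI-AKI and control pools, with medians of 0.03 in kidney and -0.19 in plasma, where 6 were tested. miR-10a-5p, whose gene lies in a Hox cluster, differed by 0.05 in kidney and -0.30 in plasma, and miR-130a by -0.02 in kidney and -0.14 in plasma. Of 8 hypoxia-linked miRNAs, 0 passed in either tissue (medians 0.03 in kidney and -0.07 in plasma, 4 tested there). Of 5 mesenchymal and smooth muscle miRNAs 0 passed, with medians of 0.04 in kidney and -0.38 in plasma, where 3 were tested: miR-143, enriched in smooth muscle, differed by -0.38 and miR-199a-3p by -0.72 in plasma (limma adjusted p = 0.941 and 0.836). At an unadjusted p under 0.05 the 3 lists held 1 miRNA, miR-199a-3p in plasma. At that level, 2.08% of all 96 miRNAs in plasma were lower and 3.12% higher, and in kidney 0% of all 176 lower and 6.25% higher.

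Blood cell miRNAs overlapped between the plasma groups. The summed scaled signal of 3 erythroid miRNAs ran from 5275 to 17190 in CI-AKI plasma pools and from 7882 to 11565 in control plasma pools, and that of 4 platelet miRNAs other than miR-24 from 4623 to 11706 in CI-AKI and from 7254 to 10530 in control plasma pools. The log2 ratio of miR-451 over miR-23a, a readout used for haemolysis, was 1.02 ± 0.76 in CI-AKI plasma and 0.77 ± 0.37 in control plasma (SD, n = 4 each), with overlapping ranges. Its denominator was selected on its difference in plasma (-0.34), so the ratio is no independent check; miR-451 itself differed by -0.09 (SE 0.41). Red cell and platelet content of each plasma pool, and its part in the miR-23 and miR-24 values, was not tested.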

How the data were processed

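RNA pooled from 3 rats was read on each 1-colour Agilent array. The spot intensity and its background-corrected form were extracted with Agilent Feature Extraction 10.7.3.1, per the file headers. A second deposited table, of log2 values with a median of 2.28 in every column and nearly equal quantiles, was used as an alternative; how the authors made it is not stated in the labels. Processed intensities were averaged over the spots (20 per miRNA, outlier-marked spots left out) and probes of a miRNA, divided by the array's 75th percentile over miRNAs detected on all arrays compared, floored at 1.79 in kidney, 0.976 in plasma and 1.31 over all 16 arrays, and put on a log2 scale. Tested were miRNAs detected on every array of 1 or both groups, with limma 3.58.1 (R 4.3.3, two-sided, Benjamini-Hochberg threshold 0.05). The fits were run on simulated data of independent normal values, without a floor, weak arrays, shared slide effects or pairing. That run bears on the fitting step alone. Ratios within arrays were compared by exact permutation (scipy 1.17.1). The standard error over spots had medians under 1% on kidney arrays, and reached 4.79% for miR-27b on the weak plasma arrays; the 4 pools per group limit the precision more. Pools are separate sets of rats within a tissue.

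The members, lists, ratios and alternatives were chosen with earlier results of these data known. Named are the members, their passengers, the 3 most alike miRNAs per member and tissue, the miRNAs past the threshold, and at most 2 per list by signal; miR-199a-3p was also named as one of the most alike, and miR-451 for its ratio. In plasma, the deviations of same-numbered pools had r = 0.22, 0.49, 0.62 and 0.60 for numbers 1 to 4. Pools of the same number also lay in neighbouring columns of the slide, so number and slide position cannot be told apart. The pairs by number are therefore a description, and the labels do not say what they share.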

Additional observations from a re-analysis of the deposited data

Results flagged for a closer look

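In kidney, miR-23b of control pool 3 stood above the other 3 control pools: its scaled signal was 2424.76, and the others lay between 2288.54 and 2291.81, so that nearly the whole range of the group was the gap to this pool. miR-27b of control pool 4 stood below, at 718.633, with the others between 774.901 and 786.885. Chance marks about 1 in 20 groups in this way, and 20 groups of the 5 members were examined.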

How the results depend on the processing

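The within-array ratios kept their sign in all alternatives, but with 1 pool fewer the exact permutation test cannot pass. Over 14 alternatives, other probes and summaries included, miR-23a over miR-23b differed between tissues by -3.58 to -2.81 in CI-AKI pools and -3.67 to -2.89 in control pools. For miR-27a over miR-27b the ranges were -2.08 to -1.84 in CI-AKI pools and -1.84 to -1.56 in control pools. The SEs of the ratios do not cover the choice of probe. Leaving out 1 pool gave -3.13 to -3.01 in CI-AKI pools and -3.21 to -3.12 in control pools for miR-23a over miR-23b, and -1.998 to -1.85 in CI-AKI and -1.79 to -1.56 in control pools for miR-27a over miR-27b; without plasma pool 4 of both groups they were -3.07, -3.15, -1.998 and -1.79 (exact permutation p = 0.0571 each). Between tissues, the sign reversed without scaling for miR-24 (1.26 in CI-AKI and 0.74 in control pools), miR-27a (0.79 and 0.53), miR-23a in CI-AKI pools (0.49) and miR-24-2* (0.72 and 0.42), after normexp for miR-27b (-0.24 and -0.12), and for miR-24-2* after quantile normalization (0.17 and 0.10) and in the authors' deposited table (0.53 and 0.66). Called between tissues were 134 miRNAs in CI-AKI and 138 in control pools, against 83 and 57 without scaling, 61 and 73 after normexp, and 70 and 56 among miRNAs detected on every array, where fewer were tested. Members called numbered 4 in each, against 2 and 1 without scaling and 2 in CI-AKI pools after normexp. In kidney, 3 miRNAs were called between CI-AKI and control pools, against 1 each with quantile normalization, no scaling or a single fit of all groups, 0 after normexp and 0 among miRNAs detected on every array; leaving out 1 pool gave 2 to 3. Of these 3, miR-327 was detected on 0 and miR-466b on 1 of the 4 control kidney arrays, so the filter on every array leaves both out. The cause of the other changes was not tested. In plasma the count stayed at 0 under all 23 alternatives. Same-numbered kidney pools had r = 0.20, 0.59, -0.10 and 0.15, and they too lay in neighbouring columns of their slide. With the replicate block the same 3 kidney miRNAs were called, and 0 in plasma. Between tissues it called 134 in CI-AKI and 135 in control pools, so pairing by number changed no call of a member.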
